A study of Homo sapiens with 4 samples.

Results

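The phosphoinositide-specific phospholipase C (PLC) family was described through its 10 listed genes (PLCH1, PLCH2, PLCB1, PLCB2, PLCB3, PLCB4, PLCG1, PLCG2, PLCD1 and PLCD3), found by name among the 22361 genes and loci of the ARIEL knockdown table, where each had 1 row. The data are 4 RNA-seq libraries of Jurkat, an established human T-cell acute lymphoblastic leukaemia line. A lentiviral shRNA targeted the long non-coding RNA ARIEL in 2 of them, and a GFP shRNA served as the control in the other 2. All 4 were infected with polybrene, kept under puromycin selection (0.7 µg/ml, 36 h or longer), collected 72 h after infection and given ERCC spike-in RNA by cell number. This is a single cell line, and the labels do not say whether replicates came from separate infections, so the tests measure only the spread between these libraries. The family was taken up because PLCH1 had one of the largest differences of this same contrast, so the members' differences are a description and carry no test of their own.

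PLC enzymes cut the membrane lipid phosphatidylinositol bisphosphate (PIP2) into inositol trisphosphate (IP3), which opens calcium channels of the endoplasmic reticulum, and diacylglycerol, which stays in the membrane and recruits protein kinase C and RasGRP proteins. The beta enzymes are switched on by Gq-coupled receptors and G-protein beta-gamma subunits, the gamma enzymes by tyrosine kinases, and the delta and eta enzymes respond to calcium. In T cells PLCG1 is the form that the T-cell receptor uses, through LCK, ZAP70 and the adaptors LAT and LCP2.

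Expression is given as the authors' rlog values (regularised log, in log2 units), in which noisy values are pulled towards the gene's mean, so that a difference understates the change. The RNA at locus XLOC_005968, which is ARIEL by background knowledge of the study and not by the table, had rlog values of 10.58 and 10.55 in the knockdown libraries, against 12.02 and 11.91 in the control libraries. All 10 T-cell markers lay between rlog 11.6 and 16.8. Of them 6 fell and 1 rose, beside 22.4% of all tested genes called lower and 22.1% higher. Of 18 B-cell, myeloid and erythroid markers 4 were listed at 0, MS4A1, CSF1R and HBA1 among them, and all but CD79A and EPOR lay at or below 5.40. CD79A was higher in the knockdown libraries (a difference of 0.29), so the summed linear level of the 6 B-cell markers was 2433 and 2467 there, against 1962 and 2072 in the control libraries; the 10 T-cell markers summed to 254589 and 259739 in knockdown libraries and 274167 and 276341 in control libraries. The part of these shifts in the results was not tested, and fewer cells of a type cannot be told apart from less RNA per cell. Library depth is unknown.

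The promoter windows of the member with the largest difference and of the most abundant member are shown to let them be compared. They are RefSeq windows of 300 bases (250 before to 50 after the annotated start, build GRCh38.p14, which is not the build of the expression table), PLCH1 at chr3:155745022-155745321 on the minus strand and PLCG1 at chr20:41137293-41137592 on the plus strand. Capitals mark the E-box letters CANNTG, which basic helix-loop-helix factors such as TAL1 with their partners recognise, and the GC box GGGCGG on either strand.

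PLCH1: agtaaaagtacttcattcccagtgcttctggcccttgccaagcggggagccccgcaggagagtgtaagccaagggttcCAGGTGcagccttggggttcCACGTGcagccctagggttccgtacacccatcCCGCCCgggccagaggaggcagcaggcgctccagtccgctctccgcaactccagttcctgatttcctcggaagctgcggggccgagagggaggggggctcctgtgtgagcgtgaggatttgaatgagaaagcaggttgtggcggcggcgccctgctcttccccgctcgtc

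PLCG1: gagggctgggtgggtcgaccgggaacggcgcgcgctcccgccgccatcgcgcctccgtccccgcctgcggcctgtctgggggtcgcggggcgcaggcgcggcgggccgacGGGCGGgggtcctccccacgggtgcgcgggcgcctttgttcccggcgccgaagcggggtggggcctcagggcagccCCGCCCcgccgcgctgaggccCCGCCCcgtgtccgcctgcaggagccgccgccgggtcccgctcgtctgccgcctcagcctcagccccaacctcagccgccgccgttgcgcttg

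The PLCH1 window held 2 E-boxes and 1 GC box, with 63.7% GC and 18 CG pairs, while the PLCG1 window held no E-box and 3 GC boxes, with 81.0% GC and 47 CG pairs. Neither window held GATA or the RUNX letters TGTGGT on either strand, and the capital runs do not overlap. Over the 35116 windows of the table, CANNTG was present in 68.7%, GATA in 49.7%, TGTGGT in 13.1% and GGGCGG in 45.0%. Among the other members with a single window, PLCG2 held 3 E-boxes and PLCB3 and PLCD3 none. The table has windows for 6 of the 10 members. These matches describe letters only.

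Of the 10 members, 8 passed the filter on low values (mean rlog not under log2 of 10) and were fitted with limma among 14601 genes. In that fit 3 members were called lower (PLCH1, PLCB1 and PLCG1) and 3 higher (PLCB3, PLCD1 and PLCD3), 6 in all. The background was 44.4% of all genes called, 22.4% lower and 22.1% higher, at an adjusted p under 0.05. The rule that chose the family had this contrast in view, so nothing is read from the count. The median difference was -0.06 over the 8 members. Groups did not overlap in 7 of the 8, as in 70.7% of all genes tested. The count rests on small differences that moved with single libraries left out. PLCG1 ran from -0.11 to -0.06, PLCB3 from 0.10 to 0.16, PLCD1 from 0.10 to 0.17 and PLCD3 from 0.06 to 0.23. After removal of each library's trend with GC content and length, 4 members were called lower and 2 higher, beside 3091 and 3686 of 12719 genes in that fit.

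**Figure D1:**
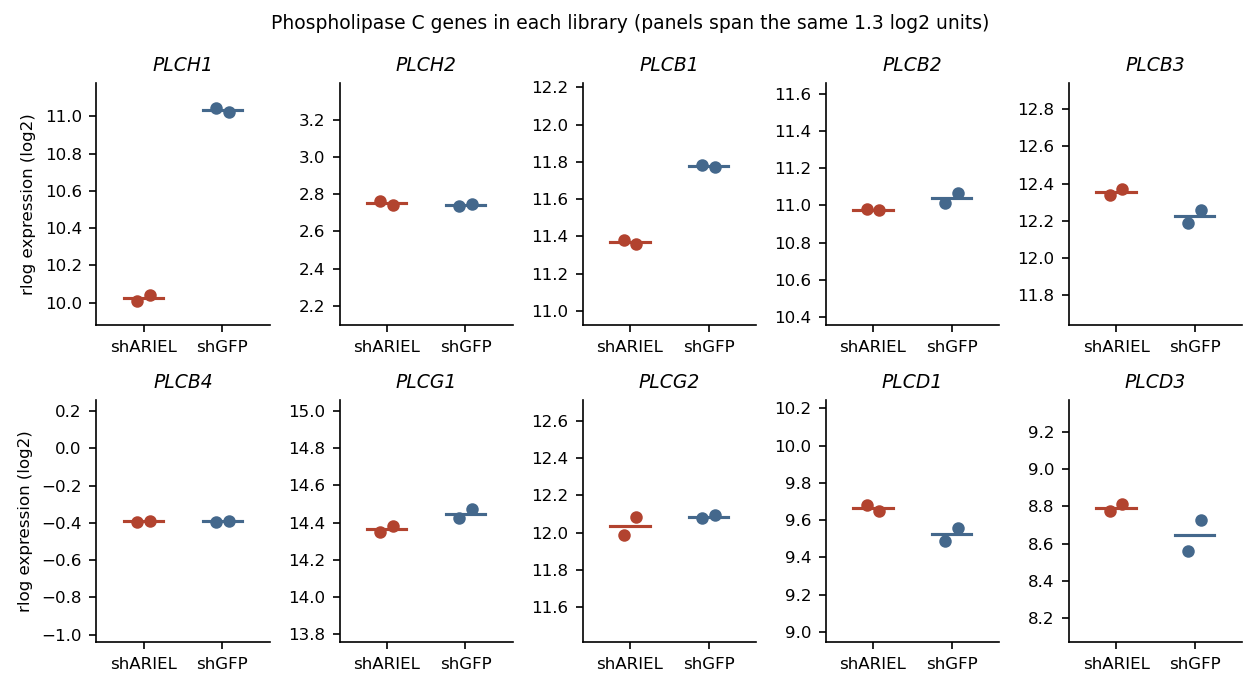
rlog expression (log2 units) of the 10 PLC genes in each library, shARIEL on the left and shGFP on the right of each panel; points are libraries and lines are group means (n = 2). PLCH1 separates by 1.01 and PLCB1 by 0.41, and the other panels show shifts of 0.15 or less.

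The eta enzymes PLCH1 and PLCH2 are calcium-sensitive forms best known from neurons. PLCH1 (ENSG00000114805, chromosome 3) had rlog values of 10.01 and 10.04 in the knockdown libraries, against 11.04 and 11.02 in the control libraries. Both knockdown libraries lay far below both control libraries, and the libraries of a group differed by at most 0.03. The difference was -1.01 ± 0.04 (SE, n = 2 per group), the 6th lowest of the 14601 genes tested. In the authors' deposited table PLCH1 was 4.06-fold lower, with a log2 fold change of -2.02 ± 0.09 (SE). PLCH2, its paralogue, was barely detected, at 2.76 and 2.74 in knockdown libraries and 2.73 and 2.75 in control libraries, and was not tested. PLCH1 shares 107 exonic bases with a pseudogene on its own strand in GENCODE 29 that has no row in the table.

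The beta enzymes, which act below Gq-coupled receptors, did not move as a unit. PLCB1 (chromosome 20) had values of 11.38 and 11.36 in the knockdown libraries, against 11.78 and 11.77 in the control libraries. The groups were well apart, with a mean shift of -0.41 ± 0.04 (SE, n = 2 per group), and in the authors' deposited table PLCB1 was 1.70-fold lower. PLCB3, a widely expressed beta form, had 12.34 and 12.37 in knockdown libraries and 12.19 and 12.26 in control libraries, a difference of 0.13 ± 0.04. PLCB2, the form of blood cells, had 10.98 and 10.97 in knockdown libraries and 11.01 and 11.07 in control libraries. Its groups were separate but close, the difference was -0.06 ± 0.04, and it was not called. PLCB2 shares 357 exonic bases with PLCB2-AS1 on the opposite strand, which has no row. PLCB4, the neighbour of PLCB1 on chromosome 20, was at -0.39 in every library and was not tested.

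The gamma enzymes, PLCG1 and PLCG2, differed by small amounts. PLCG1, the T-cell receptor's PLC, had 14.35 and 14.38 in knockdown libraries, against 14.42 and 14.47 in control libraries. Its groups were separate by less than the gap between the control libraries, and the difference was -0.08 ± 0.03 (SE, n = 2 per group). PLCG2, the form that B cells rely on, had 11.99 and 12.08 in knockdown libraries and 12.08 and 12.09 in control libraries; the groups overlapped, and the difference was -0.05 ± 0.04. It rested on single libraries, at -0.0017 without ARIEL knockdown replicate 1 and -0.10 without replicate 2. The call of PLCG1 was lost without ARIEL knockdown replicate 1 or 2, without shGFP control replicate 2, and when the spread was not allowed to depend on level. PLCG1 shares 268 exonic bases with ZHX3 on the opposite strand, and whether counting used strand is not given in the sources used here. ZHX3 rose by 0.20 ± 0.03 (limma, adjusted p = 1.48e-07). PLCG1 also shares 111 bases with RPL23AP81 on its own strand, and 145 with PLCG1-AS1 and 125 with AL022394.1 on the other. PLCG2 shares 386 with AC099524.1 and 318 with RN7SKP176 on its own strand. None of these but ZHX3 has a row, and the part of such reads was not tested.

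The delta enzymes are the simplest PLC forms, and the delta genes among the members, PLCD1 and PLCD3, were both slightly higher. PLCD4, a delta gene outside the members, differed by 0.00 ± 0.02 and was not called. PLCD1 had 9.68 and 9.65 in knockdown libraries, against 9.49 and 9.56 in control libraries, which differ by 0.14 ± 0.05 (SE, n = 2 per group). PLCD3 had 8.77 and 8.81 in knockdown libraries, against 8.56 and 8.73 in control libraries, a difference of 0.15 ± 0.05. The control libraries of PLCD3 differed from each other by 0.17, more than the group means did. Without shGFP control replicate 1 the difference of PLCD3 was 0.06 and without replicate 2 it was 0.23. PLCD1 was not called without ARIEL knockdown replicate 1, without shGFP control replicate 1 or after GC and length correction, and PLCD3 was not called without ARIEL knockdown replicate 2 or shGFP control replicate 1. PLCB3 likewise lost its call without ARIEL knockdown replicate 2 and without shGFP control replicate 1. PLCD3 overlaps the exons of ACBD4 by 124 bases and of NMT1 by 50, both on the other strand. NMT1 rose by 0.25 ± 0.03 (limma, adjusted p = 5.76e-14), and ACBD4 (0.08 ± 0.05) was not called; the part of such reads in the value of PLCD3 was not tested. Of the 8 members with an adjusted p in the authors' deposited table, 5 were below 0.05, as were 39.4% of all genes there, and PLCD3 was not (adjusted p = 0.0837).

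**Figure D2:**
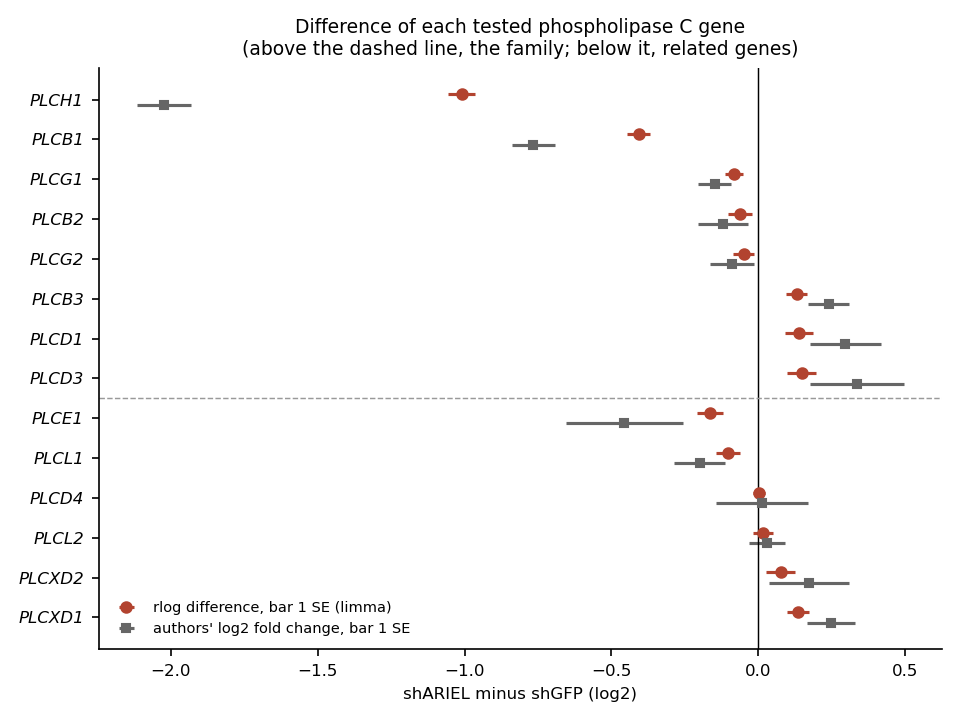
Difference between shARIEL and shGFP libraries for each tested PLC gene, as the rlog difference (circles) and the authors' log2 fold change (squares), each with a bar of 1 SE. Both measures are in log2 units. PLCH1 lies at -1.01 and -2.02, PLCB1 at -0.41 and -0.77, and all other genes nearer to 0 on both measures.

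Per length of transcript, PLCG1 was the dominant PLC RNA of these cells. The linear level (2 to the power of rlog, per kb of the GENCODE 29 transcript with the longest coding part) of PLCG1 was 3952 and 4037 in knockdown libraries and 4159 and 4305 in control libraries. That was 57.2% and 57.3% of the summed level of the 10 members in knockdown libraries, and 57.0% and 57.2% in control libraries. PLCB3 came next with 16.8% in both knockdown libraries and 14.3% and 14.6% in control libraries. In the control libraries PLCG2, PLCB1 and PLCB2 followed between 447 and 502 per kb, with PLCG2 and PLCB1 within each other's spread. Then came PLCH1, at 342 and 338 in control libraries but only 167 and 170 in knockdown libraries. That placed PLCH1 below PLCD1, which was at 277 and 270 in knockdown libraries and at 243 and 255 in control libraries, so these genes changed places. PLCD3 was at 62.0 to 73.7 in all libraries, PLCH2 near 1.4 and PLCB4 near 0.13. PLCH1 made up 2.42% of the family's level in both knockdown libraries, against 4.69% and 4.49% in control libraries. These levels and shares come from rlog values, which understate differences, and in the authors' deposited table PLCH1 was 4.06-fold lower. The family's sum was 6908 and 7044 in knockdown libraries and 7294 and 7524 in control libraries.

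**Figure D3:**
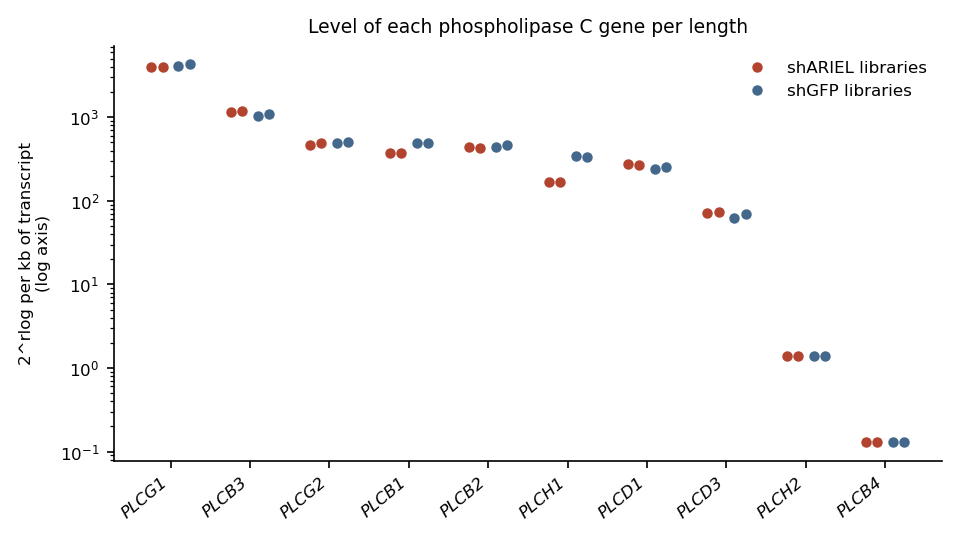
Linear level per kb of transcript (2 to the power of rlog, log axis) of each PLC gene in the 4 libraries, ordered by level in the control libraries; red points are shARIEL libraries and blue points shGFP libraries. PLCG1 stands at 3952 to 4305, PLCB3 next at 1046 to 1185, and PLCH2 and PLCB4 lie at the bottom.

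Transcript GC content ran along with the direction of some members, but not of PLCG1 or PLCB2. The lower members PLCH1 and PLCB1 had transcripts of 44.0% and 40.8% GC, but PLCG1, also called lower, had 56.7%. The higher members PLCB3, PLCD1 and PLCD3 had 62.0%, 60.3% and 60.3%. Over 12719 tested genes with transcript properties, split by GC content into 10 equal groups, the median difference was -0.08 in the lowest group and 0.08 in the highest. The group that holds PLCH1 had a median of -0.02, and that of PLCB1 a median of -0.05. PLCG1 and PLCB2 shared a group with a median of 0.04, while they differed by -0.08 and -0.06. After removal of that trend and the one with length, the differences were -0.96 for PLCH1, -0.34 for PLCB1, 0.08 for PLCB3, 0.09 for PLCD1 and 0.12 for PLCD3. PLCG1 and PLCB2, both GC-rich at 56.7% and 58.0%, lay at -0.10 and -0.09 on that scale, and PLCB2 was then called.

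**Figure D4:**
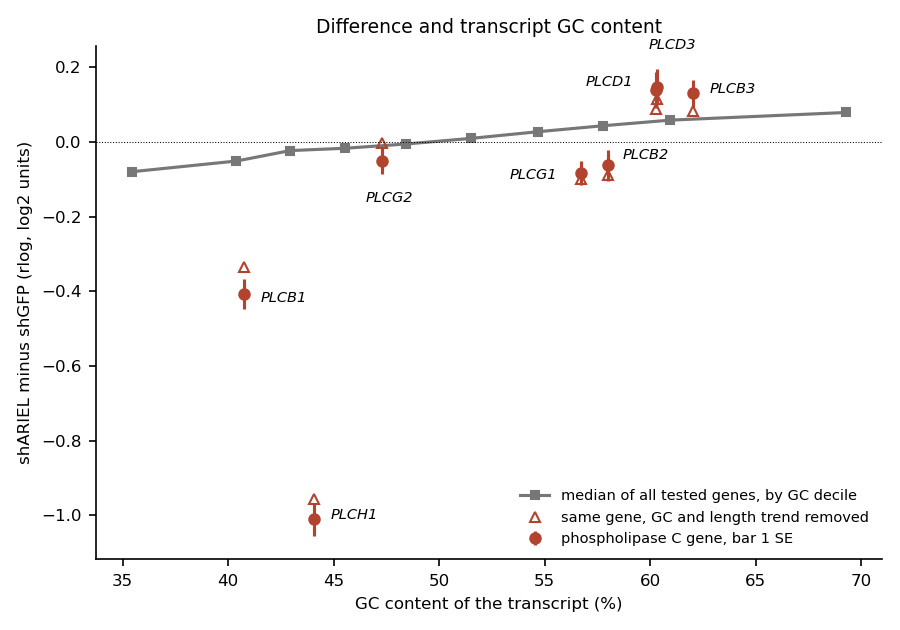
rlog difference (shARIEL minus shGFP, circles with bars of 1 SE) of the 8 tested PLC genes against transcript GC content, with the same differences after the GC and length trend was removed (triangles) and the median of all tested genes in each of 10 groups by GC content, drawn at the middle of its range (grey). PLCH1 and PLCB1 lie below the grey medians of their GC groups, and the 3 GC-rich higher members come nearer to 0 with the trend removed.

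None of the 10 members' 3′ UTRs (of the same representative transcripts) carried any of 4 words of 7 bases that had been picked earlier on these data for their carriers' differences. Of the 12322 tested genes with a 3′ UTR, 8.77% carried GATGACA and 8.83% carried AGATGAC. Another 2 words, TGTTGTC in 10.9% of these genes and GTTGTCA in 9.37%, completed the set, and 24.8% carried at least 1. PLCE1, a PLC outside the listed members, carried both GATGACA and AGATGAC.

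Genes beside PLCH1 on chromosome 3 differed by far less. Of the 3 nearest genes with a row on each side (order from GENCODE 29), 4 were tested. C3orf33 differed by 0.01 ± 0.05 (SE), SLC33A1 by 0.03 ± 0.04 and the membrane peptidase gene MME by 0.04 ± 0.02, and these were not called. DHX36, an RNA helicase gene, fell by 0.12 (limma, adjusted p = 0.00185). Beside PLCB1 the only neighbour tested was TMX4, a thioredoxin-related transmembrane protein gene, which fell by 0.22 (adjusted p = 7.51e-10 by limma). Beside PLCB3, 4 of the 5 tested neighbours rose as it did (chosen after their values were seen), among them FKBP2 by 0.22 ± 0.04 and PPP1R14B by 0.19 ± 0.03. The share called higher over all tested genes was 22.1%.

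The genes whose 4-library pattern lay closest to that of PLCH1 were other large falls. By Euclidean distance of mean-centred rlog values over the 4 libraries, ANXA1 was nearest (0.04), then SET (0.05), GZMA (0.09), ETV5 (0.09) and SRPR (0.09). Their differences ran from -1.10 ± 0.05 (ETV5) to -0.96 ± 0.03 (SET). They were chosen by likeness on these values, so the agreement is no finding, and SET has near-identical pseudogenes.

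PLC genes outside the 10 members moved little on the rlog scale. Of 8 such genes 6 were tested, with PLCE1 and PLCL1 lower and PLCXD1 higher, and a median difference of 0.01, against 0.00 over all genes tested. That was 50% called, against 44.4% of all tested genes. PLCE1, the PLC that binds Ras, had 7.43 and 7.27 in knockdown libraries and 7.53 and 7.49 in control libraries (limma, adjusted p = 0.000863). Its rlog difference was -0.16 ± 0.04 (SE), and its log2 fold change in the authors' deposited table was -0.46 ± 0.20 (SE). PLCL1, a PLC-like protein without catalytic activity, differed by -0.10 ± 0.04 (SE; adjusted p = 0.0354), and PLCXD1 by 0.13 ± 0.04 (adjusted p = 0.00152). PLCL2 (0.02 ± 0.03), PLCD4 (0.00 ± 0.02) and PLCXD2 (0.08 ± 0.05) were not called, and PLCZ1, the sperm form, and PLCXD3 were listed at 0. The call of PLCE1 was lost without ARIEL knockdown replicate 2 and that of PLCL1 without either knockdown replicate or shGFP control replicate 1. That of PLCXD1 was lost without shGFP control replicate 1. After GC and length correction PLCL2, PLCXD1 and PLCXD2 were called higher and none lower, beside 3686 and 3091 of 12719 genes in that fit. In the authors' deposited table PLCXD1 alone was below 0.05, beside 39.4% of all genes there.

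Upstream of the beta enzymes, the Gq subunit gene GNAQ fell. It had 13.94 and 13.87 in knockdown libraries, against 14.39 and 14.34 in control libraries, a difference of -0.46 ± 0.03 (SE; limma, adjusted p = 1.09e-44). Of 14 tested genes for G proteins that act on PLC-beta, 3 rose and 3 fell, with a median of 0.01. That was 42.9% called, near the 44.4% of all tested genes. The beta subunit genes GNB1 (0.20 ± 0.03) and GNB5 (0.16 ± 0.04) rose, and the gamma subunit gene GNG2 fell by 0.18. GNA11, which encodes the other widely expressed alpha subunit of this class, differed by 0.02 and was not called (chosen after its value was seen). The other alpha subunit genes listed, GNA15 and GNA14, were also chosen after their values were seen. GNA15 lay above GNAQ, at 15.48 and 15.56 in knockdown libraries and 15.46 and 15.52 in control libraries. It differed by 0.03 ± 0.03 and was not called, while GNA14, at a low level, fell by 0.08.

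Among the kinases and adaptors that activate PLC-gamma in lymphocytes, 8 of 16 tested genes fell and 1 rose, with a median of -0.08. The background was 22.4% of all tested genes called lower and 22.1% higher. The adaptor gene LCP2 (SLP-76) had 11.55 and 11.52 in knockdown libraries, against 11.90 and 11.89 in control libraries, a difference of -0.36 ± 0.04 (SE; limma, adjusted p = 3.15e-19). GRAP2 (GADS), which links LCP2 to LAT, differed by -0.33 ± 0.03, and the kinase gene FYN by -0.22 ± 0.03. LAT (chosen after its values were seen) fell by 0.14, while LCK (-0.05) and ZAP70 (0.01) were not called. The 1 gene that rose, SH3BP2, differed by 0.09. After GC and length correction 12 fell and 2 rose, beside 3091 and 3686 of 12719 genes in that fit. LCK is also among the 10 T-cell markers, whose summed level was lower in knockdown libraries; the part of that shift here was not tested.

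Genes that supply PIP2 were called no more often than genes at large. Of 18 tested, 5 fell and 3 rose, with a median of 0.00. That was 44.4% called, as over all tested genes (44.4%). PITPNB, a phosphatidylinositol transfer protein, had 11.16 and 11.08 in knockdown libraries, against 11.80 and 11.74 in control libraries, a difference of -0.65 ± 0.04 (SE; limma, adjusted p = 5.81e-58). PIP4K2A and PIP4K2C, kinases that make PIP2 by a minor route, differed by -0.40 ± 0.03 and -0.27 ± 0.04, and the transfer protein gene PITPNM2 rose by 0.32 ± 0.04. After GC and length correction, or with libraries centred on their medians, 5 fell and 5 rose. Over all genes the corrected fit called 3091 lower and 3686 higher of 12719. The centred fit called 3052 lower and 3452 higher of 14601.

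On the IP3 side, 11 of 26 tested genes for IP3 receptors and calcium signalling fell and 4 rose, with a median of -0.04. By comparison 22.4% of all tested genes were called lower and 22.1% higher. The plasma membrane calcium pump genes ATP2B4 and ATP2B1 differed by -0.30 ± 0.03 (SE; limma, adjusted p = 2.16e-19) and -0.27 ± 0.04, and the calmodulin gene CALM2, which has pseudogene copies, by -0.29 ± 0.03. CAMK4, a calmodulin-dependent kinase of lymphocytes, rose by 0.23 ± 0.03. Of the IP3 receptors (chosen after their values were seen), ITPR1 fell by 0.22 while ITPR2 (0.02) and ITPR3 (0.06) were not called. Enzymes that convert inositol phosphates had 6 of 18 higher and 4 lower, with a median of 0.04. Their share called was 55.6%, against 44.4% of all tested genes. ITPK1, an inositol phosphate kinase, had 12.82 and 12.87 in knockdown libraries and 12.34 and 12.42 in control libraries, a difference of 0.47 ± 0.03 (SE; limma, adjusted p = 1.83e-39). ITPKB, the IP3 kinase of lymphocytes, differed by -0.27 ± 0.04, IP6K2 by 0.20 ± 0.03 and INPP4A by -0.11 ± 0.03. INPP4A was not called without ARIEL knockdown replicate 1.

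On the diacylglycerol side, 9 of 18 tested effector genes fell and 3 rose, with a median of -0.09, beside 22.4% of all tested genes called lower and 22.1% higher. The protein kinase C gene PRKCE had 10.44 in both knockdown libraries, against 11.08 and 10.97 in control libraries, a difference of -0.58 ± 0.04 (SE; limma, adjusted p = 5.21e-39). PRKCH differed by -0.44 ± 0.03, and BCL10, which links protein kinase C to NF-kappaB, by -0.42 ± 0.04, while PRKCA rose by 0.24 ± 0.03. Diacylglycerol kinases, which remove diacylglycerol, had 3 of 7 higher and 2 lower by small amounts, with a median of 0.06. Their share called was 71.4%, against 44.4% of all tested genes. DGKD (0.17 ± 0.03) and DGKH (0.15 ± 0.04) rose, and DGKZ (-0.11 ± 0.03) and DGKA (-0.10 ± 0.03) fell. DGKA and DGKH were not called without ARIEL knockdown replicate 1, nor DGKA and DGKZ without shGFP control replicate 2.

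**Figure D5:**
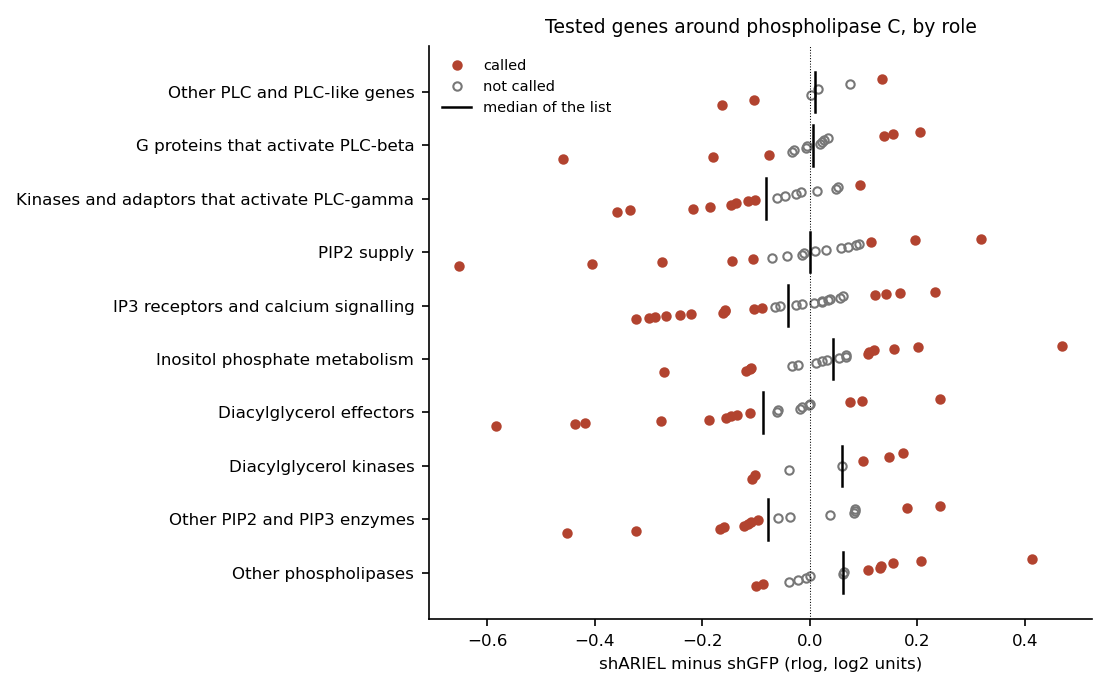
rlog difference (shARIEL minus shGFP, log2 units) of each tested gene in 10 groups around PLC; filled points were called at an adjusted p under 0.05 in the fit over all genes, open points were not, and bars are group medians. PITPNB at -0.65 and PRKCE at -0.58 lie furthest left, and ITPK1 at 0.47 furthest right.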

How the data were processed

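RNA-seq values for 2 ARIEL knockdown and 2 shGFP control libraries were read from the authors' table, which per the file headers holds rlog-normalised expression on the log2 scale, with the authors' log2 fold change, its standard error, a test score, a p-value and an adjusted p. Per the labels' protocols the libraries kept strand, with paired reads of 100 bases. Build hg19 and the tools DESeq2 1.12.4, HTSeq 0.6.1 and STAR 2.5.2a are listed, without roles, in the submitters' processing notes; annotation and strand setting are not given in these sources. The table gives no counts, so depth and counting error are unknown.

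limma 3.58.1 (R 4.3.3; eBayes with a trend on level, no pseudocount) was fitted to the rlog values of 14601 genes (mean rlog not under log2 of 10), with Benjamini-Hochberg adjustment over all of them at 0.05. The prior degrees of freedom were infinite, so genes of a level share 1 spread, and the SE of a gene that varies more than its level is too small. GC content, length, 3′ UTRs, gene order and overlaps came from GENCODE 29 (GRCh38), matched by gene ID for 19320 rows; promoters came from RefSeq. The trend with GC content and length was removed from each library by splines (5 degrees of freedom each). Python 3.11.15, numpy 2.4.6, pandas 2.3.3 and matplotlib 3.10.9 made the tables and figures.

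The members and gene lists were chosen with earlier results of these data known. Named genes are all members, up to 4 called genes per list with the smallest adjusted p, all other PLC genes and the 5 genes most like PLCH1; 1 gene that this rule names is not reported here. Alternatives were other filters (none, or a mean not under log2 of 50), spread estimates, scaling, the authors' statistics, a replicate block and leaving out each library.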

Additional observations from a re-analysis of the deposited data

How the results depend on the processing

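The difference of PLCH1 kept its sign in every alternative run, from -1.02 to -0.996 with any library left out and -0.96 after GC and length correction (with or without the replicate block); on the authors' deposited scale it was -2.02. When the spread was not shared between genes (2 residual degrees of freedom), limma called 0 genes over all genes (4561 at an unadjusted p under 0.05, against 6701 at an unadjusted p under 0.05 in the authors' deposited table), and so 0 members and 0 genes of every list. Leaving out 1 library gave 4225 to 6188 calls over all genes, 3 to 5 among the members, 1 to 3 among other PLC genes, 5 to 9 for PIP2 supply, 6 to 8 for inositol phosphate metabolism, 2 to 6 for diacylglycerol kinases and 3 to 7 for other phospholipases. Kinases and adaptors of PLC-gamma had 14 calls after GC and length correction, with or without the block. Those fits called 6844 and 6777 of 12719 genes. Among other PLC genes 1 was called in the authors' deposited table. Of 44 named genes outside the 10 members that were called, 2 (PLCE1 and PLCL1) lost the call after GC and length correction and on the authors' statistics, and 0 reversed in any alternative.

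Replicate numbers are shared by the groups, but nothing says that they pair libraries. Deviations of same-numbered libraries correlated at 0.20 over genes. With the replicate block 7426 genes, 6 members and 12 PIP2 supply genes were called, and no named gene lost its call.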

Other observations

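Enzymes that use the same lipids by other routes were also listed. Of 16 tested genes for other PIP2 and PIP3 enzymes 8 fell and 2 rose, with a median of -0.08. Their share called was 62.5%, against 44.4% of all tested genes. The class I phosphoinositide kinase genes PIK3CG, of blood cells, and PIK3CA differed by -0.45 ± 0.04 (SE; limma, adjusted p = 2.87e-34) and -0.32 ± 0.03, and the regulatory subunit gene PIK3R1 by -0.17 ± 0.03, while PIK3R3 rose by 0.24 ± 0.03. After GC and length correction 8 fell and 4 rose, beside 3091 and 3686 of 12719 genes in that fit. Of 14 tested phospholipases outside the PLC family 6 rose and 2 fell, with a median of 0.06, beside 22.1% of all tested genes called higher and 22.4% lower. PLD6, a mitochondrial member of the phospholipase D family, had 10.87 and 10.91 in knockdown libraries, against 10.48 and 10.47 in control libraries, a difference of 0.41 ± 0.04 (SE; limma, adjusted p = 1.52e-19). The acid sphingomyelinase gene SMPD1 rose by 0.21 ± 0.05, PLBD2 by 0.15 ± 0.05 and PLA2G12A by 0.13 ± 0.04. PLBD2 was not called without ARIEL knockdown replicate 1 or shGFP control replicate 1, nor PLA2G12A without ARIEL knockdown replicate 2. After GC and length correction 4 of these phospholipase genes rose and 3 fell, beside 3686 and 3091 of 12719 genes in that fit.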
